A study of Mus musculus with 8 samples.

Results

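The comparison set 4 single-nucleus RNA libraries from mice that had TBI surgery (traumatic brain injury) against 4 libraries from mice that had not, which together are all 8 libraries of the series. All came from perilesional forebrain of male Swiss Webster mice aged 10 weeks, an outbred stock. The arm with TBI surgery held TBI 1 and 2 (TBI alone) and BCAS+TBI 1 and 2 (both surgeries), and the arm without it held control 1 and 2 and BCAS 1 and 2. BCAS is given only as an abbreviation, tied by the title of the study to cerebral hypoperfusion, so each arm held 2 libraries with and 2 without it. The labels call the libraries biological replicates, name no number of mice per library and give neither the device that caused the injury nor the time between surgery and collection. Libraries were placed in the arms by the surgery label, while the gene lists were chosen with earlier results of these data known. Counts were compared in 3 compartments: all kept nuclei (whole tissue), neurons, and the nuclei outside the neuron gate.

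Mechanical injury of the brain damages axons and vessels and releases glutamate, and the tissue around the lesion is known to respond in several cell types. Neurons there can switch on immediate early genes such as Fos and Egr1 and stress regulators such as Ddit3. Astrocytes raise the filament protein Gfap, microglia engage the receptor Trem2 and complement, oligodendrocyte precursors and microglia divide, and oligodendrocytes can lose myelin genes. The gene lists below cover these responses, though they were chosen with earlier results of these data known. Single-nucleus libraries read these genes from nuclear RNA, which holds unspliced and long genes more than cytoplasmic messages.

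Of 53390 deposited barcodes, 48468 passed as nuclei. Neurons, defined by at least 3 unique molecular identifiers (UMIs) of Snap25, Rbfox3 and Syt1 together, numbered 35894, and 12574 nuclei lay outside this gate. Neurons held 92.4% of the UMIs, so the whole-tissue values mostly repeat those of neurons, and the other nuclei rest on 2175076 to 3756409 UMIs per library. Libraries held 28118725 to 56135192 UMIs. Control 1, BCAS 1, TBI 1 and BCAS+TBI 2 were the 4 of lowest depth and the remaining 4 the highest, so each depth set held 1 library of every group. In the low set, the number that opens the deposited file names was 15 for both libraries without TBI surgery, and 16 and 17 for the 2 with it, so this number and the surgery cannot be told apart there. What the number stands for is not given, and all 4 libraries of the high set carry the number 16. Values over file number 16 below come from these and TBI 1, a low-depth library, and were fitted without a depth term. Depth and surgery are therefore mixed in them. Markers of upper and deep cortex, striatum, hippocampus and thalamus were all detected in neurons, whereas 13 of 15 markers of blood leukocytes were too low to test in the other nuclei. A total of 244 barcode sequences occurred in more than 1 library, 4 to 15 for each pair of libraries.

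No single gene passed the test of TBI surgery in any compartment, and the differences below are sizes and counts without a call. The test was edgeR's quasi-likelihood test with the depth set and BCAS as further terms and Benjamini-Hochberg adjustment over all genes of a compartment at 0.05. Among 23011 genes in whole tissue, 22370 in neurons and 15154 in other nuclei, 0 were called (0%) and the smallest adjusted p was 0.332, 0.707 and 0.999. An unadjusted p under 0.05 was reached by 755 genes (3.28%), 1119 genes (5%) and 460 genes (3.04%). DESeq2 called 2 genes in whole tissue, 4 in neurons and 0 in other nuclei. Without the filter on low counts, edgeR called 56 of 30908 genes in other nuclei. The smallest edgeR adjusted p of that fit was 1.33e-37, against 0.999 in the main fit. Among the called genes were Top2a, Cenpa and Ptgs2, but also Il1r1, whose arms overlapped, and Oxt, Avp and Lcn2. The depth set in the same edgeR model put 61.8%, 63.4% and 34.1% of genes past the threshold, and BCAS surgery put 0 genes there. Each programme is therefore given by how many of its tested members were higher in the arm with TBI surgery and by the median log2 difference (TBI minus no TBI), beside the same over all genes. Since the lists were not chosen blind to these data, such counts are a description and no test. Over all genes, 47.4% were higher in whole tissue, 50.1% in neurons and 52.3% in other nuclei, with medians of -0.0071, 0.00023 and 0.0084. Both depth sets gave a higher value for 22.6%, 26% and 24.1% of genes. In summed counts, more nuclei of a type and more RNA per nucleus cannot be told apart.

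**Figure D1:**
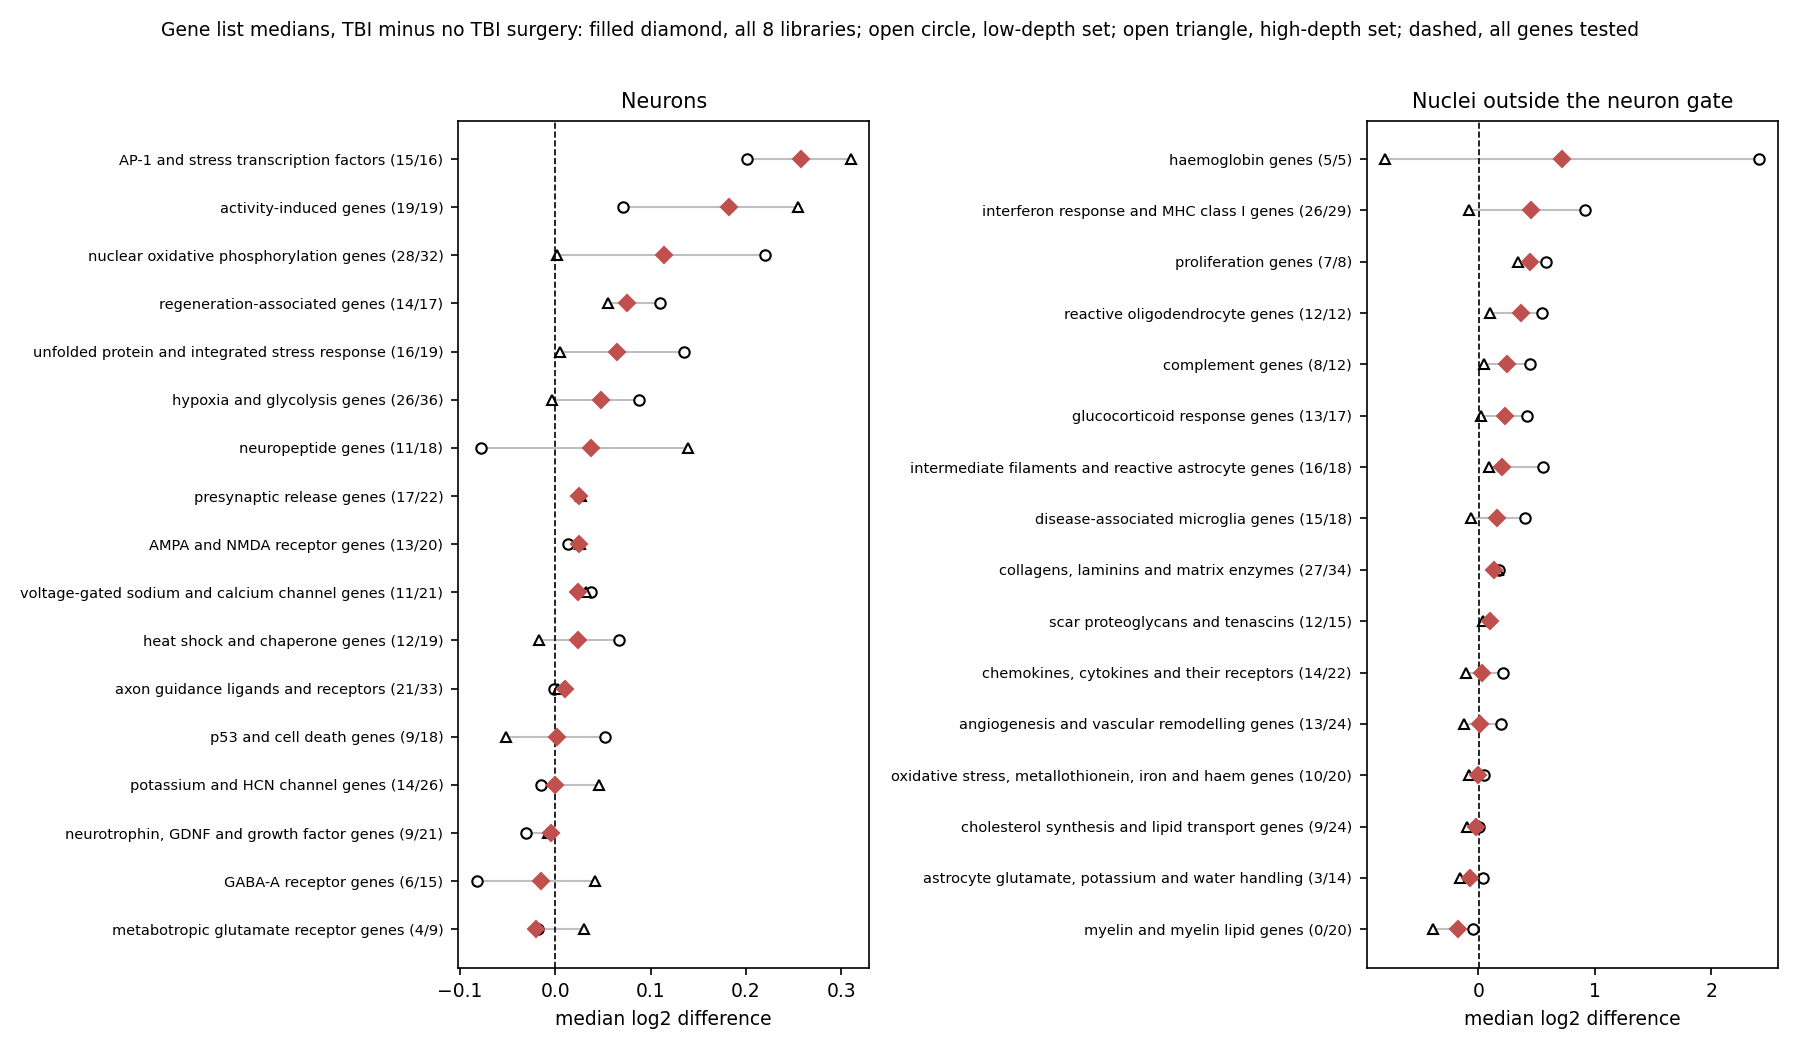
Median log2 difference (horizontal axis, TBI minus no TBI surgery) of the programme lists described for neurons (left) and of those described for the nuclei outside the neuron gate (right), with the number of higher and of tested members in brackets; open symbols are the medians within the low-depth (circle) and high-depth (triangle) sets, and the dashed line is the median of all genes tested. Among the neuron lists shown, AP-1 (0.26) and activity-induced genes (0.18) lead with both sets above 0, whereas haemoglobin and interferon genes lead in the other nuclei with the sets on opposite sides of 0.

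Genes of cell division were higher with TBI surgery in the nuclei outside the neuron gate. The gene with the smallest p-value there among those with a gene name of their own was Top2a, the topoisomerase that untangles chromosomes in dividing cells. Levels are given as CPM, a gene's UMIs relative to all UMIs of that library and compartment after TMM scaling, and 4 values without TBI surgery stand in the order control 1, control 2, BCAS 1, BCAS 2, and 4 with it in the order TBI 1, TBI 2, BCAS+TBI 1, BCAS+TBI 2. Top2a was at 3.03, 0.537, 0.846 and 3.36 CPM without and 15.2, 6.44, 6.35 and 9.19 CPM with TBI surgery. All 4 libraries with TBI surgery lay above all 4 without, a pattern that 0.475% of the genes tested in other nuclei showed. Genes as low as Top2a, Cenpa and Kif23 can pass the filter on low counts through the arm where they are high. Top2a and Cenpa were also picked by p-value, so the separation of the arms is a description and no support. The log2 difference was 2.17 (SE 0.46; edgeR adjusted p = 0.999), with 2.62 in the low and 1.71 in the high set. Cenpa, the histone that marks centromeres, stood at 1.51, 1.88, 2.12 and 1.96 CPM without TBI surgery, and at 8.75, 4.6, 5.29 and 4.18 CPM with it. Here too the arms did not overlap, and TBI 1 was the highest library (log2 difference 1.60, SE 0.34). Kif23, a kinesin of the dividing cell's midbody, was measured at 2.27, 1.88, 2.54 and 3.64 CPM without TBI surgery and at 4.52, 5.06, 5.64 and 4.6 with it, again without overlap (log2 difference 0.94, SE 0.29). Knl1, a kinetochore scaffold, overlapped between the arms because control 1 reached 6.44 CPM against 5.29 to 8.36 CPM with TBI surgery (log2 difference 1.02, SE 0.37; 0.485 over all deposited barcodes). These levels are low: Top2a rests on 132 UMIs over the 8 libraries, Knl1 on 114, Cenpa on 89 and Kif23 on 86. In the 6619 of 12574 other nuclei with 0 UMIs of the 3 gate genes, a stricter gate that keeps 50.4% of the UMIs, all 4 genes were too low to test. There the arms still did not overlap for Top2a (0.522 to 3.17 CPM without and 5.89 to 11.2 CPM with TBI surgery) and Cenpa (0.635 to 2.61 and 3.48 to 6.27 CPM), but they did for Kif23 and Knl1.

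Promoters of cell-cycle genes are known for the CCAAT box, which the factor NF-Y binds, and those of these genes are printed for the 3 genes whose arms did not overlap. Each line is the 250 bases before the RefSeq gene start (GRCm38.p6), 5′ to 3′ on the gene's strand, with CCAAT or its reverse complement ATTGG in capitals. Top2a (chr11:99024190-99024439, minus strand) holds 6 matches, Cenpa (chr5:30666636-30666885, plus strand) holds 2 and Kif23 (chr9:61946800-61947049, minus strand) holds 1. A match is a description of the letters and not a bound site.
Top2a: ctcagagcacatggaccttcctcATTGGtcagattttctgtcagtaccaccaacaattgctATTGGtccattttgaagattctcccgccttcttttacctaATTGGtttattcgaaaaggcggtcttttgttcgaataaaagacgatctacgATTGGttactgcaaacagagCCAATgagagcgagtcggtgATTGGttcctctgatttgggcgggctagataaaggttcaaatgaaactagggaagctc
Cenpa: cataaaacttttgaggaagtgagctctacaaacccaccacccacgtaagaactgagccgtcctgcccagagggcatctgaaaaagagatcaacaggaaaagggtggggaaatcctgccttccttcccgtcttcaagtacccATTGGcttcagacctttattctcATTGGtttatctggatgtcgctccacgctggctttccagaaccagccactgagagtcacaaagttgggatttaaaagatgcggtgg
Kif23: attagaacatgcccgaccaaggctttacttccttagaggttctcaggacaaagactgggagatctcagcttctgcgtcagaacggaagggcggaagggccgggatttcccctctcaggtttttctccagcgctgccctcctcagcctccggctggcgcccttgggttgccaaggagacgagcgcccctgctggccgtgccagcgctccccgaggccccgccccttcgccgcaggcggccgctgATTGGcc
Among the 20 genes of the proliferation list, 17 had a promoter in the table and 15 of these held the letters on either strand, a share of 88.2%, beside 37.5% of all 27025 genes in the table.

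The proliferation list as a whole was higher as well, but with the stricter gate its arms overlapped and its median was smaller. Only 8 of its 20 genes passed the filter on low counts, and a gene can pass through the arm where it is high, so the sum over all 20 is the better description. That sum was 142, 143, 145 and 156 CPM without TBI surgery, and 216, 165, 186 and 162 CPM with it. The arms did not overlap, although BCAS 2 and BCAS+TBI 2 lay close together at 156 and 162 CPM. In the nuclei with 0 UMIs of the gate genes the sum overlapped, at 147, 138, 157 and 165 CPM without and 213, 131, 202 and 151 CPM with TBI surgery. The median of the tested members was 0.44 over 8 genes, 0.07 over the 5 left by the stricter gate and 0.08 over the 3 left by a minimum count of 30. Diaph3, a formin that is also expressed outside division, was the most abundant member, at 30.6 to 45.4 CPM without and 38.7 to 57.8 CPM with TBI surgery (log2 difference 0.31, SE 0.15).

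Counting nuclei rather than UMIs gave the same order of the arms at 2 genes, and an overlap at 3 genes after thinning. This count was chosen after the gene values were seen and so is given without a test. Its 13 mitotic genes include Top2a, Kif23 and Knl1, so it reuses UMIs of the levels above and is no separate support. Nuclei with UMIs of at least 2 of the 13 genes (Mki67, Top2a, Cdk1, Aurkb and others) were few. With every nucleus thinned to 1000 UMIs, other nuclei of this kind numbered 3, 1, 0 and 0 in the libraries without TBI surgery, and 11, 5, 5 and 4 in those with it. That is 4 of 4893 thinned nuclei without TBI surgery (mean over libraries 0.0849% ± 0.125, SD, n = 4) and 25 of 4527 with it (0.535% ± 0.174). Neurons, which no longer divide, gave 4 of 17168 and 8 of 18174 at the same depth, or 0.0237% and 0.0478%. Thinning left out 1622 and 1532 shallower other nuclei and 301 and 251 neurons without and with TBI surgery. Without thinning, the counts in other nuclei were 6, 3, 0 and 4 against 21, 6, 8 and 6. TBI 1 had the largest share, 1.16% of 1813 nuclei (exact binomial 95% interval 0.718 to 1.76%), and the 0 of 1395 nuclei in BCAS 1 allow up to 0.215% by a limit of 3 counts, or 0.264% as the upper bound of the exact interval. These limits cover counting error only. A stricter count of at least 3 genes gave 3, 1, 0 and 4 nuclei without and 14, 5, 5 and 5 with TBI surgery before thinning. After thinning it gave 2, 1, 0 and 0 against 5, 2, 2 and 0 (means 0.0628% ± 0.0838 and 0.186% ± 0.145, SD, n = 4), where BCAS+TBI 2 and, by its share, BCAS+TBI 1 lay within the range of the other arm. The 14 unthinned nuclei in TBI 1 carried 238 UMIs of 15 microglia markers and 112 of 12 markers of oligodendrocyte precursors, with 86 of oligodendrocyte and 61 of astrocyte markers. In this order the UMIs were 26, 235, 4 and 180 in the 5 nuclei of BCAS+TBI 1. They were 42, 90, 1 and 55 in TBI 2 and 94, 13, 78 and 75 in BCAS+TBI 2. The lists differ in level, at 541 to 1001 CPM for microglia and 2457 to 3602 CPM for precursor markers over all other nuclei. These UMIs therefore do not name the type of the nuclei. Unthinned neurons, at medians of 4482.5 to 8479 UMIs against 1268 to 1973 in other nuclei, gave 0.870% and 0.937% at 2 genes, above the other nuclei, so only the thinned shares are compared between compartments.

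**Figure D2:**
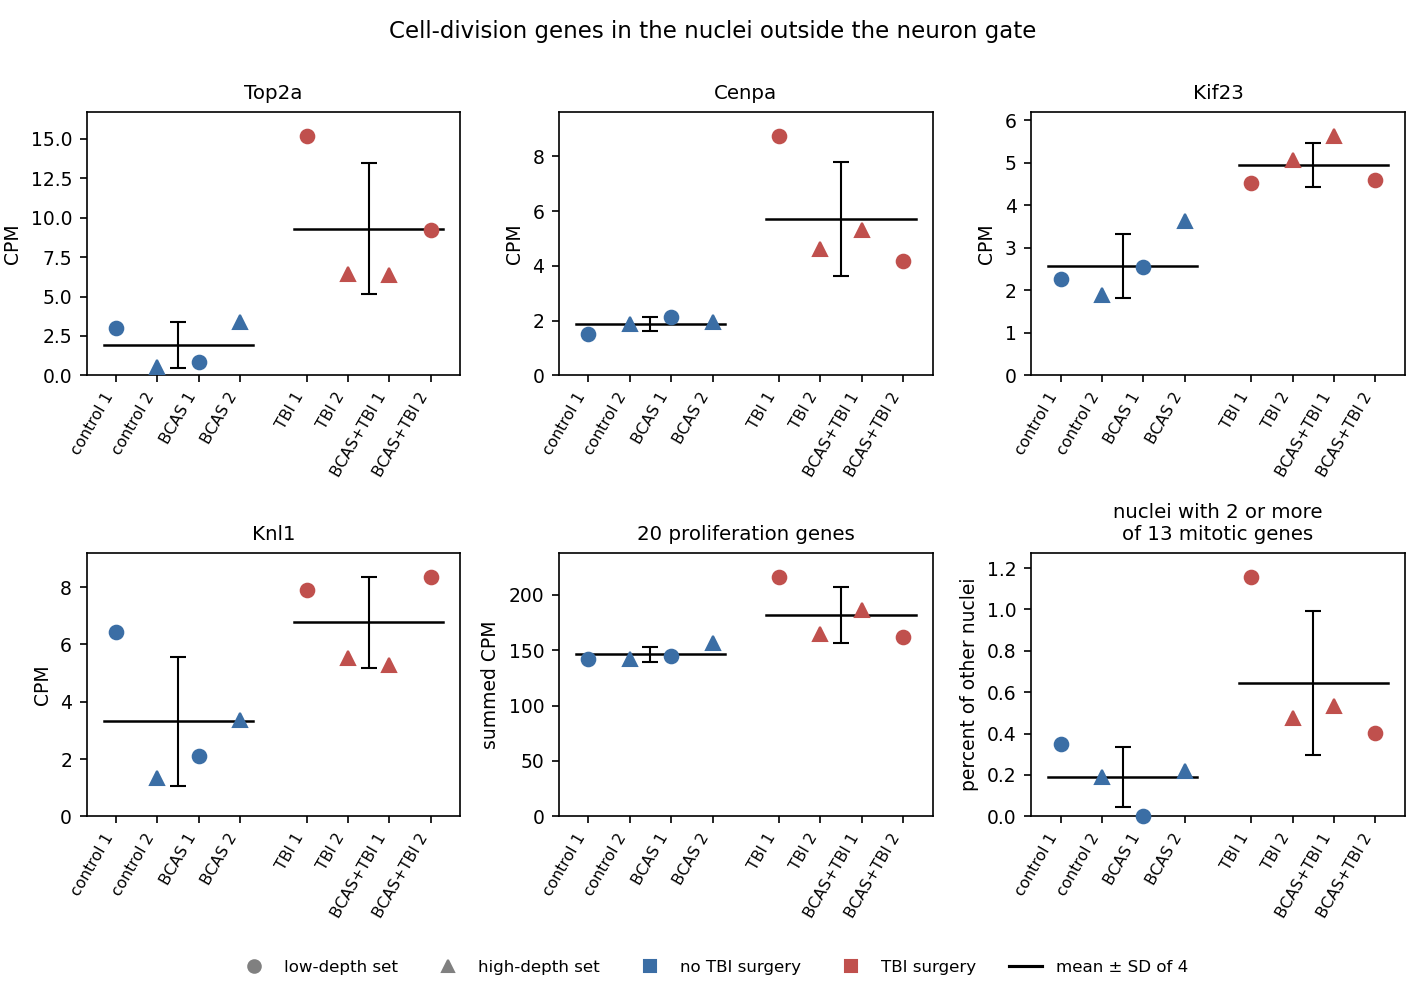
Levels of Top2a, Cenpa, Kif23 and Knl1 (CPM), the summed CPM of 20 proliferation genes, and the percent of nuclei with UMIs of at least 2 of 13 mitotic genes before thinning, in the nuclei outside the neuron gate of each library; circles are the low-depth and triangles the high-depth set, and lines and bars are the mean ± SD of 4 libraries. The 4 libraries with TBI surgery (red) lie above the 4 without (blue) in every panel but Knl1, where control 1 overlaps, and TBI 1 is the highest for Top2a, Cenpa, the sum and the percent of nuclei.

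In neurons, the estimates of immediate early genes leaned to one side. All 19 activity-induced genes were higher by estimate with TBI surgery (50.1% of all genes were), 16 of them in both depth sets (26% of all genes). The median log2 difference was 0.18, with 0.07 in the low and 0.25 in the high set. The summed level was 747, 858, 734 and 703 CPM without and 725, 892, 878 and 860 CPM with TBI surgery. In the low set TBI 1 thus lay below control 1 and BCAS 1. Egr1, a zinc finger factor switched on by synaptic activity, was at 23.1, 33.0, 22.5 and 18.1 CPM without TBI surgery, and at 31.5, 30, 35.8 and 26.4 CPM with it. Only control 2 stood among the libraries with TBI surgery, and the log2 difference was 0.37 (SE 0.15; edgeR adjusted p = 0.938). Egr2, its paralog, was far scarcer, at 0.375 to 1.02 CPM without and 0.661 to 1.73 CPM with TBI surgery (log2 difference 1.00, SE 0.35). Nr4a1, an orphan nuclear receptor induced by calcium entry, was at 34.0 to 45.1 CPM without TBI surgery and at 40.6, 58.0, 51.0 and 41.2 CPM with it (log2 difference 0.25, SE 0.10). Dusp1, a phosphatase that shuts off MAP kinases, was at 9.05, 7.12, 7.24 and 4.5 CPM without and 9.36, 7.71, 8.4 and 12 CPM with TBI surgery (log2 difference 0.44, SE 0.15). Homer1, a scaffold of metabotropic glutamate receptors, was at 177 to 368 CPM without and 191 to 365 CPM with it, so the arms overlapped throughout (log2 difference 0.18, SE 0.10). Homer1 also differed strongly between the depth sets, with every library of the high set above every library of the low set, and its difference was -0.13 over file number 16.

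The AP-1 and stress factor list behaved alike, with 15 of 16 tested members higher, 10 of them in both sets. Its median was 0.26, with 0.20 in the low and 0.31 in the high set. Ier2, an early-response factor, was at 4.18, 2.94, 4.48 and 1.56 CPM without TBI surgery, and at 5.67, 3.12, 3.36 and 6.54 CPM with it. The low-depth libraries were the higher ones in both arms, and within each set the libraries with TBI surgery were above those without (log2 difference 0.52, SE 0.18). Fos, the classical AP-1 subunit, was at 8.55, 7.33, 8.05 and 3.09 CPM without and 10.0, 8.38, 8.7 and 8.4 CPM with TBI surgery. BCAS 2 was the low library here, and the log2 difference of 0.46 (SE 0.21) was 0.14 in the low and 0.78 in the high set. Btg2 and Gadd45b, growth-arrest genes induced by stress, had log2 differences of 0.37 (SE 0.14) and 0.41 (SE 0.16). Junb, at 12.1 to 39.0 CPM without and 22.0 to 41.6 CPM with TBI surgery, had 0.32 (SE 0.16). BCAS 2 was also the lowest of all libraries for Ier2, Btg2, Gadd45b, Dusp1 and Junb. Without BCAS 2 the median of the activity-induced list was 0.12 and without BCAS+TBI 2 that of the AP-1 list was 0.14, the lowest of the values with 1 library left out. The highest were 0.29 without TBI 1 and 0.35 without control 2. Over the 5 libraries of file number 16 the medians were 0.31 and 0.39. The effect of TBI surgery was 0.08 without and 0.32 with BCAS for the activity-induced list and 0.18 and 0.34 for the AP-1 list, a difference that was not tested for the lists.

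**Figure D3:**
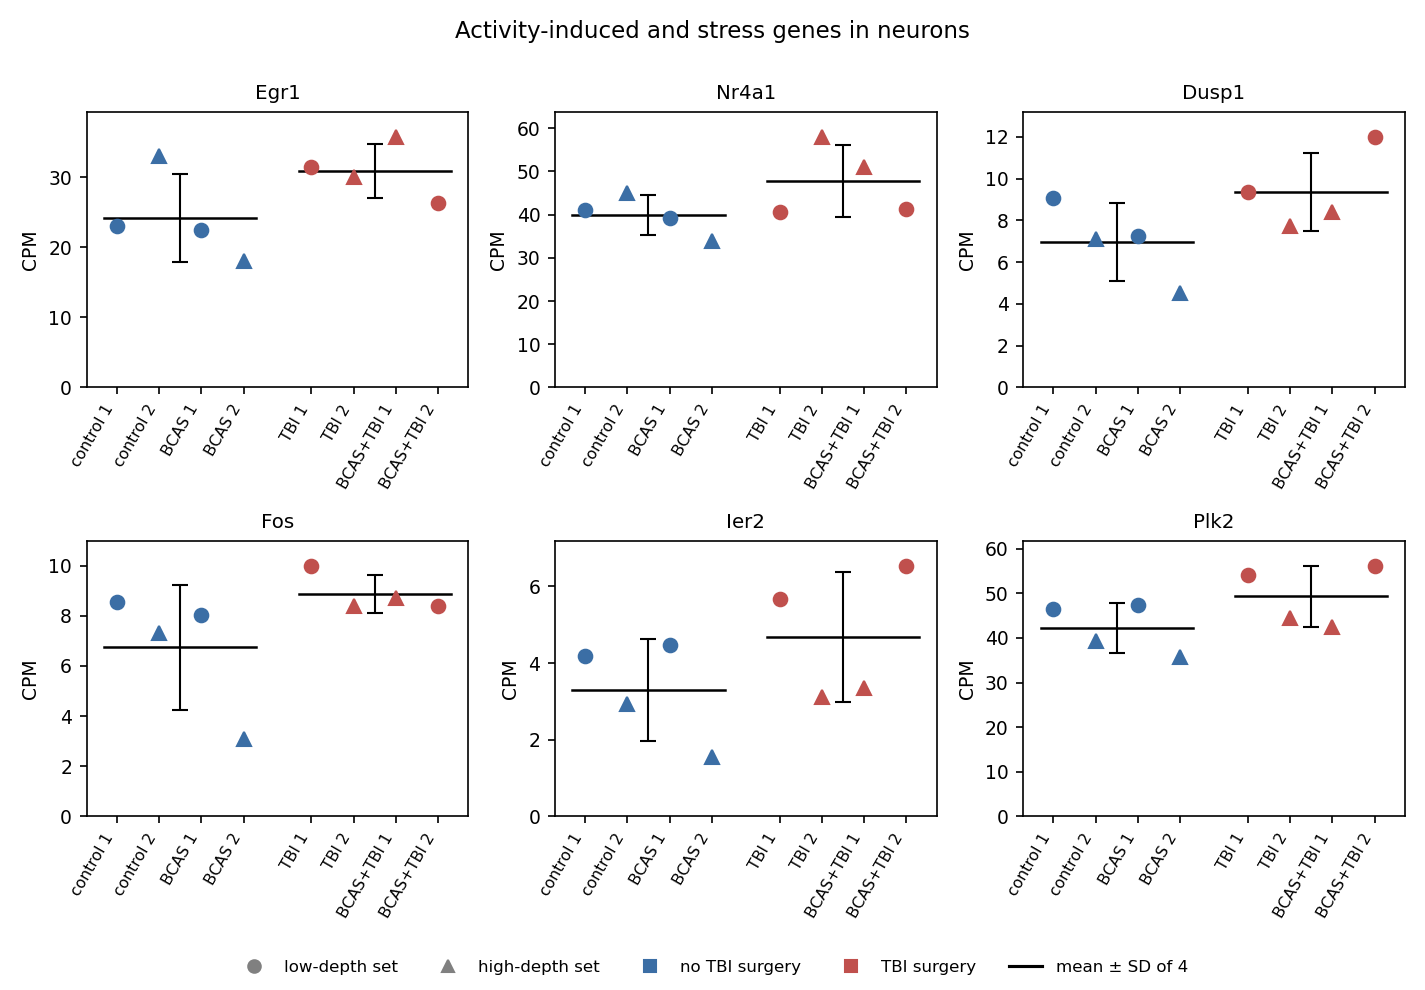
Levels (CPM, vertical axes from 0) of Egr1, Nr4a1, Dusp1, Fos, Ier2 and Plk2 in neurons of each library; circles are the low-depth and triangles the high-depth set, blue without and red with TBI surgery, and lines and bars are the mean ± SD of 4 libraries. The arms overlap for all 6 genes, and Fos, Ier2 and Dusp1 are lowest in BCAS 2 (3.09, 1.56 and 4.5 CPM).

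Other injury programmes of neurons differed less. Plk2, a kinase induced by activity and by p53, was the p53-list member with the smallest p-value, at 46.6, 39.4, 47.3 and 35.8 CPM without and 54.2, 44.5, 42.4 and 56.2 CPM with TBI surgery. Within each depth set both libraries with TBI surgery were above both without (log2 difference 0.22, SE 0.05). The p53 list as a whole was balanced, with 9 of 18 members higher and a median of 0.0015. Bcl2l11, which encodes the pro-death protein Bim, was lower by estimate, at 4.17 to 6.19 CPM without and 3.53 to 5.09 CPM with TBI surgery (log2 difference -0.24, SE 0.10). In the unfolded protein and integrated stress response, 16 of 19 members were higher with a median of 0.06. Ddit3, the stress factor CHOP, was at 9.67, 6.36, 8.33 and 5.9 CPM without and 12.1, 7.52, 6.5 and 13.2 CPM with TBI surgery, above in each set (log2 difference 0.34, SE 0.10). Trib3, a target of Ddit3, stayed under 1 CPM in every library, with a log2 difference of 0.93 (SE 0.33) on 132 UMIs. Leaving out BCAS+TBI 2 took the median of the stress list to -0.01 and left 9 members higher.

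Regeneration-associated genes were higher in 14 of 17 cases with a median of 0.08, which was -0.03 without BCAS+TBI 2. Ecel1, a damage-induced endopeptidase of neurons, was at 7.27, 4.46, 8.01 and 6.11 CPM without and 10.3, 7.64, 5.82 and 9.35 CPM with TBI surgery (log2 difference 0.36, SE 0.13). Npy, which encodes neuropeptide Y, had 0.24 (SE 0.10) and Stmn4, a microtubule regulator, had 0.12 (SE 0.05). Genes of the nuclear part of the respiratory chain were higher in 28 of 32 cases (median 0.11), but the high set gave a median of 0.0019 and leaving out BCAS+TBI 2 gave 0.01. Hypoxia and glycolysis genes had a median of 0.05, with 26 of 36 higher (0.001 over file number 16), and heat shock genes 0.02, with 12 of 19 higher.

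Receptor, channel and release genes of neurons had medians close to that of all genes. For the 20 AMPA and NMDA receptor genes the median was 0.03 with 13 higher, and for the 22 presynaptic release genes 0.03 with 17 higher. The 21 sodium and calcium channel genes had 0.02, the 26 potassium and HCN channel genes 0.00012, the 15 GABA-A receptor genes -0.01 and the 9 metabotropic glutamate receptor genes -0.02. Leaving out any 1 library kept these 6 medians between -0.048 and 0.053. Over the 5 libraries of file number 16 all 6 were negative, at -0.085 for AMPA and NMDA receptors (5 of 20 higher), -0.023 for release (8 of 22), -0.060 for sodium and calcium channels (5 of 21), -0.096 for potassium and HCN channels (4 of 26), -0.042 for GABA-A receptors (4 of 15) and -0.102 for metabotropic receptors (2 of 9). The 33 axon guidance genes had a median of 0.01 with 21 higher, which turned to -0.125 with 5 higher over the same 5 libraries. TBI 1 is the only low-depth library among them and their fit has no depth term, so depth and surgery are mixed in these values. Of the region markers, those of upper cortical layers (median 0.07), hippocampus (0.05) and thalamus (0.06) were slightly higher and those of striatal projection neurons lower (-0.11). The striatal median changed sign without BCAS 2 (0.07), was -0.26 without TBI 1 and was 0.001 without the nuclei of highest depth, those past 3 times the median.

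In the nuclei outside the neuron gate, the interferon and MHC class I list had the largest median among the inflammatory programmes, and it came from the low-depth set. Of 29 tested members, 26 were higher (52.3% of all genes were), with a median log2 difference of 0.45, which was 0.92 in the low and -0.08 in the high set. The summed level was 498, 605, 502 and 398 CPM without TBI surgery, and 1032, 505, 433 and 786 CPM with it. TBI 1 and BCAS+TBI 2 stood above all others, and TBI 2 and BCAS+TBI 1 lay within the range of the libraries without TBI surgery. H2-D1 and H2-K1, the class I heavy chains, were at 136 and 106 CPM in BCAS+TBI 2 and 190 and 106 CPM in TBI 1, against 37.5 to 109 and 26.1 to 57.2 CPM without TBI surgery. Their log2 differences were 0.52 (SE 0.20) and 0.55 (SE 0.21), and reads of these near-identical genes may be split between them. Parp14, an interferon-inducible ADP-ribosyltransferase, was at 11.8 to 22.8 CPM without and 18.3 to 32.8 CPM with TBI surgery (log2 difference 0.66, SE 0.22). Leaving out control 1 lowered the list's median to 0.16, and over the 5 libraries of file number 16 it was 0.305 with 19 of 29 higher.

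Haemoglobin and ribosomal protein RNA were high in the same 2 libraries. The summed CPM of 5 haemoglobin and haem genes in other nuclei was 226, 2204, 2271 and 1096 without TBI surgery, and 5465, 676, 1037 and 5702 with it. That of 38 ribosomal protein genes was 4054, 3517, 4969 and 2498 without, and 7111, 2927, 2213 and 7260 with TBI surgery. Both sums were highest in TBI 1 and BCAS+TBI 2, the low-depth libraries that also led the interferon list, and their part in the glial results was not tested. Most barcodes failed the filters in the same libraries, 867 of 6238 and 1394 of 6873, followed by 819 of 6318 in BCAS 1. Mitochondrial UMIs made up 0.81% and 1.38% of their kept UMIs. This share was 0.55 to 1.04% without TBI surgery, 0.40% in TBI 2 and 0.45% in BCAS+TBI 1. Any part of these quality values in the lists was not tested. All 38 ribosomal protein genes were higher by estimate with a median of 0.24, which was 0.62 in the low and -0.19 in the high set, and 0.079 with 26 higher under the stricter gate. The alpha and beta globin genes are near-identical pairs, so their values are uncertain singly. Blood leukocyte markers were not highest in TBI 1 and BCAS+TBI 2 alone. Their sum of 15 genes was 23.9 to 176 CPM without, highest in BCAS 1, and 10.8 to 81.2 CPM with TBI surgery.

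Reactive astrocyte genes were higher in 16 of 18 tested cases of 27 listed, with a median of 0.21 (0.56 in the low and 0.10 in the high set). Gfap was at 53.4, 49.1, 86.7 and 52.7 CPM without TBI surgery, and at 235, 60.8, 80.7 and 111 CPM with it. TBI 1 was far above every other library, and BCAS 1 overlapped the arm with TBI surgery (log2 difference 0.91, SE 0.26). Cd14, the co-receptor for bacterial and damage ligands, was at 1.07 to 5.5 CPM without and 2.76 to 11.3 CPM with TBI surgery, above in each set (log2 difference 1.06, SE 0.29, on 99 UMIs). Osmr, the receptor of the cytokine oncostatin M, had 0.57 (SE 0.19) and S100a6, a calcium-binding protein, 0.60 (SE 0.24). Osmr was at 0.16 over file number 16 and both were lower under the stricter gate, at 0.32 and 0.38. S100a6 was at 36.4 and 34.7 CPM in TBI 1 and BCAS+TBI 2 but at 13.8 and 9.17 CPM in TBI 2 and BCAS+TBI 1, inside the 7.56 to 19.9 CPM of the libraries without TBI surgery. The median of this list was 0.05 without control 1 and 0.45 without control 2. Astrocyte genes of glutamate, potassium and water handling were lower by estimate in 11 of 14 cases (median -0.07), with a median of 0.04 without TBI 2.

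Microglial genes followed the low set too, while the complement list had its larger median there but was above 0 in both sets. The complement list had 8 of 12 tested genes higher with a median of 0.25 (0.45 in the low and 0.05 in the high set). Of 18 tested disease-associated microglia genes, 15 were higher with a median of 0.16 (0.40 and -0.07 in the low and high sets, 0.426 over file number 16). Trem2, a microglial lipid receptor, was at 21.2, 10.7, 18.2 and 14.3 CPM without and 26.0, 12.4, 19.4 and 37.2 CPM with TBI surgery, above in the low set and overlapping in the high set (log2 difference 0.51, SE 0.18). Ctsd, a lysosomal protease, had 0.24 (SE 0.11). C1qb, a chain of the complement starter C1q, was at 21.6, 8.86, 14.4 and 6.72 CPM without and 22.3, 12.4, 11.6 and 29.2 CPM with TBI surgery, above in each set (log2 difference 0.56, SE 0.20). The 15 markers of resting microglia had a median of -0.05 with 5 higher. Chemokines, cytokines and their receptors were balanced (median 0.03, 14 of 22 higher), apart from Ptgs2 and Il1r1. Ptgs2, the inducible cyclooxygenase, did not overlap, at 2.65, 4.56, 3.38 and 3.64 CPM without and 6.21, 11, 8.11 and 8.77 CPM with TBI surgery (log2 difference 1.23, SE 0.27, on 135 UMIs). Its difference was alike in the 2 sets, 1.28 and 1.2, but under the stricter gate it was 0.41 on 71 UMIs and the arms overlapped. Il1r1, the interleukin 1 receptor, was at 14.0 to 81.9 CPM without and 37.8 to 83.3 CPM with TBI surgery (log2 difference 0.70, SE 0.29), with 0.145 under the stricter gate and 0.157 over file number 16.

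**Figure D4:**
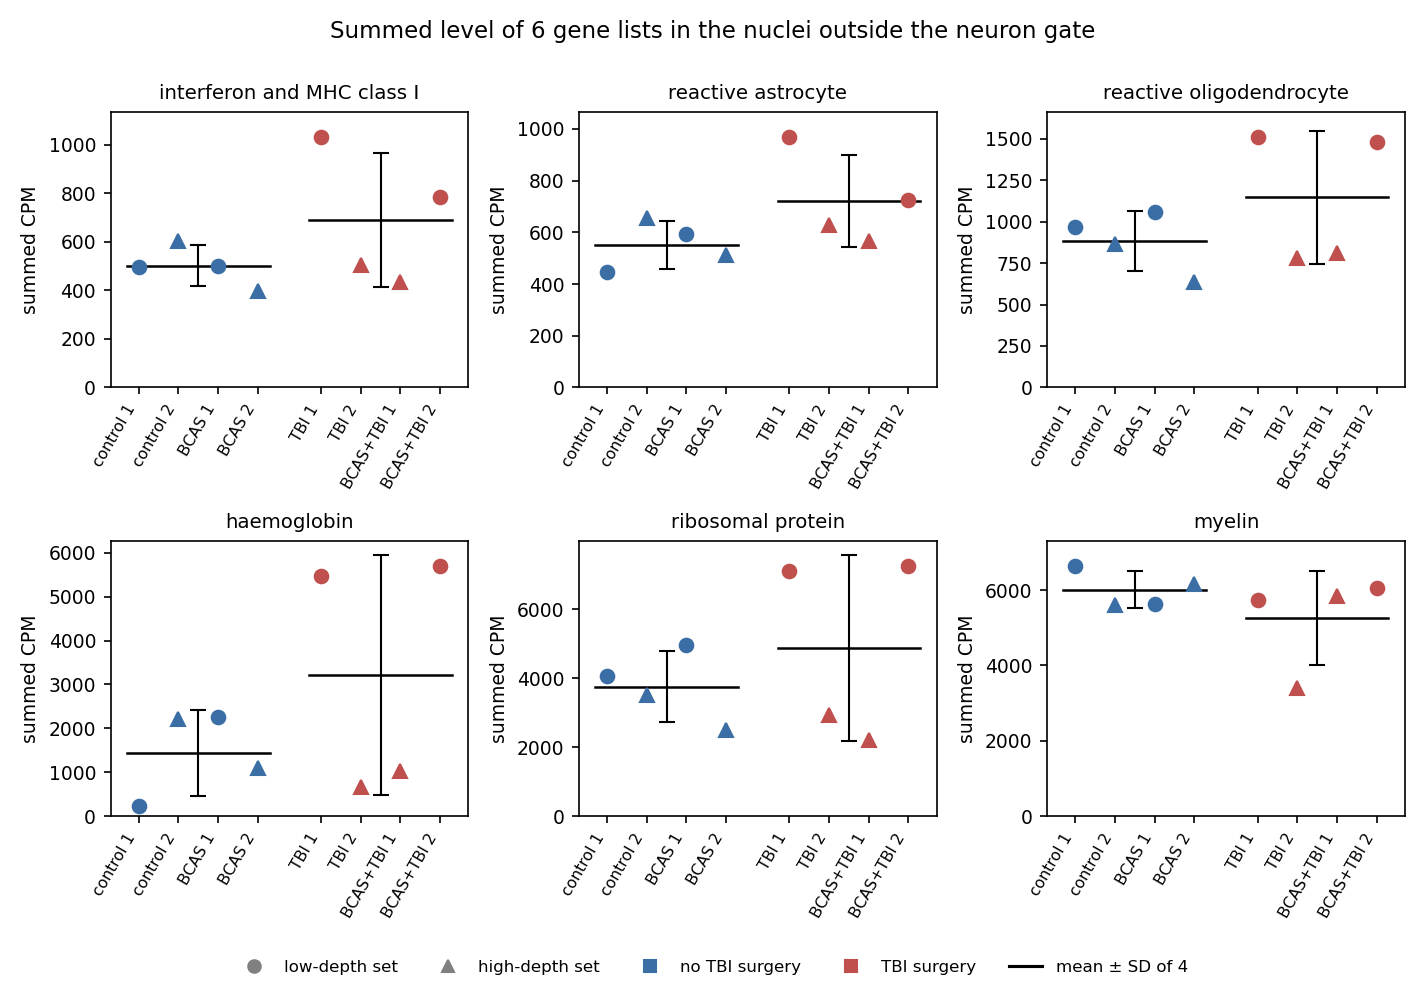
Summed CPM of the interferon and MHC class I, reactive astrocyte, reactive oligodendrocyte, haemoglobin, ribosomal protein and myelin lists in the nuclei outside the neuron gate of each library (vertical axes from 0); circles are the low-depth and triangles the high-depth set, blue without and red with TBI surgery, lines and bars the mean ± SD of 4 libraries. TBI 1 and BCAS+TBI 2 are the 2 highest libraries for all lists but myelin, for which TBI 2 (3405 CPM) is below all others (5598 to 6645 CPM).

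Reactive oligodendrocyte and myelin genes had estimates of opposite sign. All 12 tested reactive oligodendrocyte genes were higher (median 0.37; 0.55 in the low and 0.10 in the high set), but 3 of them, H2-D1, H2-K1 and B2m, are also in the interferon list. Apod, a lipid carrier induced in stressed oligodendrocytes, was at 346, 353, 356 and 242 CPM without and 506, 329, 311 and 513 CPM with TBI surgery, high in TBI 1 and BCAS+TBI 2 (log2 difference 0.33, SE 0.13). All 20 myelin genes were lower by estimate, with a median of -0.17 (-0.05 in the low and -0.39 in the high set). Mbp, myelin basic protein, was at 773 to 1100 CPM without and 593 to 989 CPM with TBI surgery (log2 difference -0.19, SE 0.16). TBI 2 was the lowest library, and without it the list's median was -0.03 with 8 of 20 higher. In the neuron gate, whose cells do not make myelin, all 20 were also lower (median -0.43), again with TBI 2 lowest at a sum of 372 CPM against 943 to 1214 CPM in the other 7 libraries, and -0.09 without it. The 14 astrocyte markers in neurons showed the same pattern (median -0.33, all lower; -0.11 without TBI 2).

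In other nuclei, markers of oligodendrocyte precursors were higher in 10 of 12 cases, 8 of them in both sets (24.1% of all genes), with a median of 0.15. The direction was the opposite elsewhere, with 1 of 12 higher in whole tissue (median -0.07) and 1 of 12 in neurons (median -0.21). Tnr, the matrix protein tenascin-R, was at 442, 442, 404 and 451 CPM without and 452, 556, 746 and 452 CPM with TBI surgery. The arms just did not overlap, and BCAS+TBI 1 was the high library (log2 difference 0.32, SE 0.13). Neu4, a sialidase of these cells, was at 18.2 to 27.6 CPM without and 25.1 to 36.3 CPM with TBI surgery (log2 difference 0.49, SE 0.18). The summed level of the 12 markers was 2457 to 2784 CPM without TBI surgery, 2557 to 2652 CPM in 3 libraries with it and 3602 CPM in BCAS+TBI 1. Without that library the median was 0.02, and it was 0.087 over all deposited barcodes and 0.341 over file number 16. Scar proteoglycans and tenascins, which include Tnr, had a median of 0.10 with 12 of 15 higher, and -0.03 without TBI 1. In whole tissue and in neurons 5 of 16 were higher, with a median of -0.04 in each.

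In other nuclei, markers of border tissues mostly had higher estimates with TBI surgery, of sizes that moved with the processing. All 10 tested choroid plexus markers were higher, each in both depth sets, with a median of 0.44 (0.28 in the low and 0.50 in the high set). In whole tissue 6 of 11 were higher (median 0.02), and in neurons 3 of 10 (median -0.13). Prlr, the prolactin receptor, was at 43.5, 18.5, 31.3 and 33.3 CPM without and 53.9, 59.4, 32.4 and 48.0 CPM with TBI surgery (log2 difference 0.61, SE 0.22). Clic6, a chloride channel, had 0.54 (SE 0.24), Htr2c, a serotonin receptor also made by neurons, 0.53 (SE 0.24), and Ttr, the thyroid hormone carrier, 0.36 (SE 0.26). Control 2 was the lowest library for all 4, and without it the median of the list was 0.18. Over all deposited barcodes the median was 0.186 and Ttr was at 0.00235, and over file number 16 they were 0.824 and 0.882. The median was 0.69 for TBI against control and 0.08 for BCAS+TBI against BCAS, a difference that was not tested for the list. Fibroblast markers were higher in 11 of 13 cases (median 0.31), against 7 of 13 in whole tissue (median 0.03) and 5 of 13 in neurons (median -0.10). Dcn, a collagen-binding proteoglycan, was at 62.1, 48.9, 39.3 and 25.8 CPM without and 65.8, 72.7, 58.2 and 72.7 CPM with TBI surgery, with control 1 inside the second range (log2 difference 0.66, SE 0.17). Col1a1, the chain of type I collagen, was at 9.8 to 22.0 CPM without and 21.5 to 36.3 CPM with it (log2 difference 0.75, SE 0.24). BCAS 2 was low in both, and the fibroblast median was 0.105 without it, 0.161 over all deposited barcodes and 0.156 over file number 16. Mural markers had a median of 0.13 (11 of 12 higher), endothelial markers 0.07 (11 of 15) and collagens, laminins and matrix enzymes 0.13 (27 of 34). In the same order, the medians were -0.03, -0.0007 and -0.03 in whole tissue, and -0.02, 0.06 and -0.02 in neurons. The endothelial median was 0.32 in the low and -0.12 in the high set. The sign turned for mural (-0.014) and endothelial markers (-0.067) under the stricter gate, and for endothelial markers (-0.174) and the matrix list (-0.017, 17 of 34 higher) over file number 16.

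The genes with the smallest p-values are given here by rule, none of them past the threshold. Because they were picked by p-value, a separation of their arms, here and in the other compartments below, is a description and no support. In whole tissue the higher ones were Dlx1as, Armcx1, Epcam, Zfp788 and Mctp2. Dlx1as, the antisense RNA of an interneuron factor, was at 11.8 to 14.8 CPM without and 14.8 to 21.0 CPM with TBI surgery, and reads of Dlx1 itself could enter if strand was not used (log2 difference 0.41, SE 0.09; edgeR adjusted p = 0.993). Epcam, an epithelial adhesion protein, had the largest of these differences, 1.33 (SE 0.30), on 143 UMIs, and 0.836 over all deposited barcodes. Zfp788, a zinc finger gene, was at 29.6 to 37.7 CPM without and 39.8 to 43.4 CPM with TBI surgery, without overlap (0.178% of genes in this direction; log2 difference 0.31, SE 0.08). The lower ones were Soga1, Egfem1, Lama2, Kif16b and Npsr1. Egfem1, a gene with EGF-like domains, was at 570, 756, 522 and 714 CPM without and 462, 402, 384 and 451 CPM with TBI surgery. The arms did not overlap, as for 0.413% of genes in this direction, and the log2 difference was -0.58 (SE 0.12), -0.26 in the low and -0.90 in the high set. DESeq2 called Egfem1 (adjusted p = 0.00758). Npsr1, the receptor of neuropeptide S, was at 44.7 to 93.8 CPM without and 30.3 to 55.4 CPM with TBI surgery (log2 difference -0.56, SE 0.13; -0.15 over file number 16), and Kif16b, an endosomal kinesin, had -0.22 (SE 0.05).

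In neurons the higher ones were Mndal, Ntng1, Mctp2, Tnfrsf12a and Armcx1. Ntng1, the synaptic adhesion protein netrin-G1, was at 595, 580, 513 and 560 CPM without and 659, 712, 619 and 598 CPM with TBI surgery (log2 difference 0.20, SE 0.04; edgeR adjusted p = 0.938). Its arms did not overlap, as for 0.259% of genes in this direction, though control 1 and BCAS+TBI 2 lay close. Tnfrsf12a, the receptor of the cytokine TWEAK, was at 1.97, 1.3, 2.12 and 0.98 CPM without and 3.9, 1.85, 1.49 and 4.98 CPM with TBI surgery, above in each set (log2 difference 0.85, SE 0.19). Mndal, an interferon-inducible DNA-binding protein, was at 1.44 to 2.65 CPM without and 2.55 to 4.1 CPM with it (log2 difference 0.70, SE 0.14). Armcx1, which promotes transport of mitochondria in axons, had 0.29 (SE 0.07) and Mctp2, a membrane protein, 0.28 (SE 0.06). The lower ones were Gsap, Soga1, Ppara, Lama2 and Trpm3. Lama2, a laminin chain, was at 33.4, 35.9, 41.4 and 47.0 CPM without and 24.1, 16.3, 31.9 and 32.1 CPM with TBI surgery, without overlap (0.438% of genes in this direction; log2 difference -0.63, SE 0.12), and DESeq2 called it (adjusted p = 0.00186). Ppara, a nuclear receptor of fatty acid metabolism, also did not overlap, at 3.2 to 4.78 CPM without and 1.97 to 2.62 CPM with TBI surgery (log2 difference -0.71, SE 0.13; -0.36 without the nuclei of highest depth). Gsap, the gamma-secretase activating protein, had -0.45 (SE 0.07), Soga1 -0.38 (SE 0.06) and Trpm3, a heat-sensitive cation channel, -0.22 (SE 0.04).

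In other nuclei the higher ones were Top2a, Cenpa and Ptgs2, given above, with Gmnc and Col4a4. Gmnc, a regulator of cells with many cilia, was at 15.3 to 25.5 CPM without and 26.7 to 61.7 CPM with TBI surgery, highest in TBI 2 (log2 difference 0.96, SE 0.23; edgeR adjusted p = 0.999). Col4a4, a basement membrane collagen, was at 9.73 to 17.6 CPM without and 20.1 to 23.0 CPM with it (log2 difference 0.86, SE 0.21). Neither overlapped between the arms, while the 10 tested ependymal markers, which also mark ciliated cells, had a median of -0.01. The lower ones were Cxcl17, Junos, Tmem163, Cyp3a13 and Stk33. Junos, the antisense RNA of Jun, was at 14.0 to 19.5 CPM without and 7.62 to 11.7 CPM with TBI surgery, without overlap (0.409% of genes in this direction; log2 difference -0.74, SE 0.19), and reads of Jun cannot be told apart from it if strand was not used. Cxcl17, a chemokine, was at 18.6, 8.32, 10.2 and 5.04 CPM without and 4.52, 4.14, 3.53 and 5.85 CPM with TBI surgery (log2 difference -1.18, SE 0.28). Cyp3a13, a cytochrome P450, was at 5.3 to 8.4 CPM without and 2.76 to 4.23 CPM with it (log2 difference -0.97, SE 0.26). Tmem163, a zinc transporter, had -0.41 (SE 0.11), which was -0.02 under the stricter gate, and Stk33, a kinase, -0.74 (SE 0.20), which was -0.28 over all deposited barcodes. Cxcl17 was at -0.78 over file number 16.

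Whether the effect of TBI surgery differed with BCAS was tested by the interaction in edgeR, which called 0 genes in each compartment (0%), with 621 (2.7%), 731 (3.27%) and 493 (3.25%) at an unadjusted p under 0.05 in whole tissue, neurons and other nuclei; no other tool was run on it. Side by side, TBI against control and BCAS+TBI against BCAS gave log2 differences of 2.70 and 1.64 for Top2a, 1.34 and 0.49 for Gfap and 1.19 and 1.27 for Ptgs2 in other nuclei. In neurons they were 0.14 and 0.61 for Egr1, 0.08 and 0.81 for Dusp1 and 0.21 and 0.73 for Fos. Fibroblast markers had medians of 0.03 and 0.55 and precursor markers -0.01 and 0.43. The interaction of TBI surgery with the depth set was tested in the same way and passed for Olfr318, an olfactory receptor, and Catspere1, a sperm channel subunit, in whole tissue (2 genes, 0.00869%), for these and the endothelial Cldn5 in neurons (3 genes, 0.0134%) and for 0 genes in other nuclei. An unadjusted p under 0.05 for it was reached by 1478 (6.42%), 1208 (5.4%) and 795 (5.25%) genes.

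The share of neurons among nuclei did not separate the arms. It was 69.9%, 73.3%, 74.6% and 73.5% without TBI surgery, and 66.2%, 83.4%, 75% and 73.0% with it. The lowest and the highest library were both TBI alone. The means were 72.8% ± 2.06 without and 74.4% ± 7.08 with TBI surgery (SD, n = 4), a difference of 1.60 percentage points (exact two-sided permutation over 70 assignments, p = 0.714, smallest possible 0.0286; over the 36 that keep 2 per depth set, p = 0.667, smallest possible 0.0556). Without TBI 2 the sign turned, to -1.40 points, and without TBI 1 the difference was 4.33 points.

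**Figure D5:**
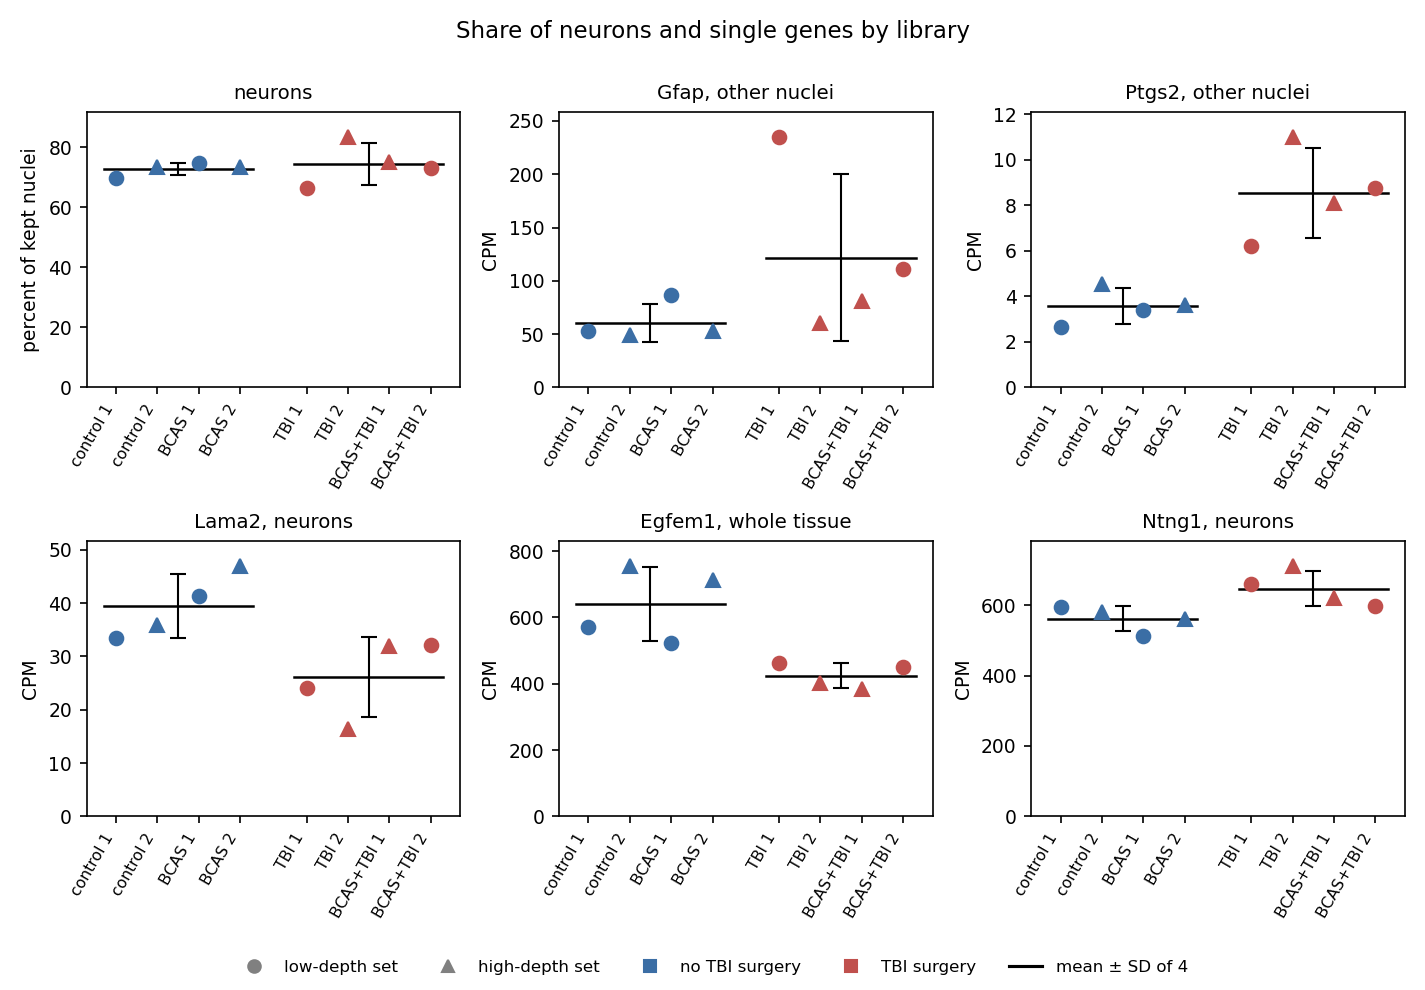
Percent of neurons among kept nuclei, and levels (CPM) of Gfap and Ptgs2 in other nuclei, Lama2 and Ntng1 in neurons and Egfem1 in whole tissue, by library (vertical axes from 0); circles are the low-depth and triangles the high-depth set, blue without and red with TBI surgery, lines and bars the mean ± SD of 4 libraries. TBI 1 (66.2%) and TBI 2 (83.4%) bound the range of the neuron share, and the arms do not overlap for Ptgs2, Lama2, Egfem1 and Ntng1.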

How the data were processed

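The deposited files hold raw UMI counts per gene and barcode, in 1 matrix per library. Per the file headers, Cell Ranger 7.0.0 wrote them. The submitters' processing notes name Seurat and the builds GRCm38 and mm10; strand use and the calling of nuclei are not given in the sources used here. A barcode was kept from 500 UMIs and 300 genes up, if no more than 5% of its UMIs were mitochondrial. Doublets were not removed, and nuclei of over 3 times the median UMIs were left out in an alternative. Counts were summed per library and compartment, since nuclei are not replicates, and fitted with edgeR 4.0.16 in R 4.3.3 (TMM, filterByExpr with a minimum count of 10 over the arms, quasi-likelihood test) with terms for depth set, BCAS and TBI surgery. The depth set is the 4 libraries of lowest against the 4 of highest total UMIs. DESeq2 1.42.0 was an alternative. The fit was checked on simulated counts. Values of single libraries are TMM-scaled CPM, and summed levels cover all list members in the files. The members and lists were chosen with earlier results of these data known. Named genes are, per compartment, up to 10 in each direction past the threshold, filled to 5 by the smallest p-values where fewer pass, without predicted, mitochondrial, sex-linked and gate genes; and per list the 4 of highest level and 4 of smallest p-value, of which some are given. Of these, 1 gene is not reported here. Of the list genes, 4 were not found under their symbol in the files. Promoter sequences are RefSeq's. Alternatives were the depth term, a replicate block, normalization, filters, depth, barcodes kept, a stricter neuron gate (neurons from 6 UMIs of the gate genes, other nuclei with 0), file number 16 alone, and each library left out. File number 16 alone was fitted without a depth term.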

Additional observations from a re-analysis of the deposited data

Results flagged for a closer look

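In an arm of 4 libraries, 1 library counted as standing apart where its gap to the nearest library exceeded Dixon's critical share of the arm's range at the 95% level, a limit that chance passes in about 1 of 20 groups, and 15 of 266 arms passed it. TBI 1 had the highest share of other nuclei with at least 2 mitotic genes, 1.16% against 0.405 to 0.533% in the other 3 libraries with TBI surgery, and with at least 3 genes, 0.772% against 0.333 to 0.396%. TBI 2 was lowest in 3 myelin measures. Its summed oligodendrocyte markers in other nuclei were 3694 CPM against 5978 to 6262 CPM, and its myelin genes 3405 CPM against 5735 to 6054 CPM. In neurons its myelin sum was 372 CPM against 1011 to 1062 CPM. Control 2 had the lowest myelin sum in neurons without TBI surgery, 943 CPM against 1171 to 1214 CPM. BCAS+TBI 1 had the highest sum of oligodendrocyte precursor markers, 3602 CPM against 2557 to 2652 CPM, and the highest Cyp3a13, 4.23 CPM against 2.76 to 2.92 CPM. BCAS+TBI 2 led the hypoxia and glycolysis sum in neurons at 1369 CPM against 1236 to 1253 CPM. BCAS 1 was highest without TBI surgery for blood leukocyte markers, 176 CPM against 23.9 to 28.7 CPM, and for Gfap, 86.7 CPM against 49.1 to 53.4 CPM. BCAS 2 was highest for the proliferation sum, 156 CPM against 142 to 145 CPM, and for Col4a4, 17.6 CPM against 9.73 to 10.6 CPM, and lowest for Apod, 242 CPM against 346 to 356 CPM. Control 2 was highest for Parp14, 22.8 CPM against 11.8 to 12.9 CPM.

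The effect of TBI surgery differed between the depth sets for a few features. The interaction of surgery and depth set in edgeR passed for Olfr318 (an olfactory receptor) and Catspere1 (a sperm channel subunit) in whole tissue, 2 of 23011 genes (0.00869%), and for these and Cldn5 in neurons (0.0134%). Olfr318 was at 0.0218 and 0.0195 CPM in control 2 and BCAS 2 and at 0.909 to 2.4 CPM in the other 6 libraries of whole tissue, so its log2 difference was -0.03 in the low and 6.64 in the high set, an interaction of 6.67 (6.55 in neurons). Catspere1 was at 1.15 and 0.818 CPM in the same libraries and at 16.3 to 31.3 CPM elsewhere, with an interaction of 5.04 (5.09 in neurons). The 2 low libraries for both genes are the high-depth libraries without TBI surgery. Cldn5, a tight junction protein of endothelium, read in neurons, was at 34.9 and 21.3 CPM in TBI 1 and BCAS+TBI 2 against 12 and 9.42 CPM in control 1 and BCAS 1. In the high set it was at 6.28 and 4.09 CPM with and 9.13 and 6.97 CPM without TBI surgery, an interaction of -2.01. For 2 lists in other nuclei, all libraries with TBI surgery were above in the low set and below in the high set, a difference that was not tested. The log2 ratios of the summed levels were 2.16 and -0.94 for haemoglobin genes, and 0.14 and -0.07 for chemokines, cytokines and their receptors.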

How the results depend on the processing

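The number of called genes stayed at 0 in all 3 compartments without the depth term, with RLE normalization, a minimum count of 30, thinning, other barcode sets and file number 16 alone, and in neurons and other nuclei with the stricter gate, which was not run on whole tissue. DESeq2 called 2 genes in whole tissue and 4 in neurons. Without the filter on low counts, edgeR called 56 of 30908 genes in other nuclei, with 40 higher and 16 lower. They included Top2a, Cenpa, Ptgs2, Gmnc, Gfap, Col4a4 and Cxcl17, and also Il1r1, Oxt, Avp and Lcn2, and the cause was not tested. Leaving out each library gave 0 to 1 genes in whole tissue (1 without BCAS 1) and 0 to 1 in neurons (1 without BCAS 1, and 1 without TBI 1). With a replicate block in place of the depth set, 0 genes were called and 68, 89 and 86 had an unadjusted p under 0.05 in whole tissue, neurons and other nuclei. Same-numbered libraries of control, BCAS and TBI deviated together, and those of BCAS+TBI did the reverse. In whole tissue the correlation of their deviations was 0.893 for control and BCAS, 0.754 for control and TBI and -0.871 for control and BCAS+TBI. With 2 libraries per group, pairs of unlike number hold the same values with the sign turned. Crossing the numbers of BCAS+TBI gives the depth set. The difference in neuron share ran from -1.4 to 4.33 points with 1 library left out, negative without TBI 2. Of 72 named gene values, 2 changed sign: Homer1 was -0.13 over file number 16 alone, and Mbp ran from -0.37 to 0.000319, positive without TBI 2. Leaving out BCAS 2 took Fos from 0.46 to 0.20 and Junb from 0.32 to 0.14. The 58 list medians moved by more than the spread between the depth sets in 83 of 464 cases with 1 library left out, and in 76 of 751 with other alternatives. The difference in the share of nuclei with mitotic genes was 0.453 points, 0.345 with at least 3 genes, 0.45 after thinning and 0.123 with both, alternatives chosen after seeing the data. Genes under a few CPM in other nuclei rest on about 100 UMIs over 8 libraries, which limits their precision.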
